A study of Homo sapiens with 6 samples.

Results

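The MHC class I antigen presentation genes are 9 of the 53712 gene names in the count table. They were taken by name: the heavy chain genes HLA-B, HLA-C, HLA-E and HLA-F, the light chain gene B2M, the peptide transporter genes TAP1 and TAP2, the tapasin gene TAPBP, and NLRC5. All 9 were present and all 9 were expressed enough to be tested. The cells were H9, a long-used line of human embryonic stem cells, kept in RSeT, which is a culture medium for a naive-like pluripotent state. Cells of the first group received 2.5 µM UNC1999, which inhibits EZH2 and EZH1, the enzymes of Polycomb repressive complex 2 that methylate histone H3. Cells of the second group received UNC2400, an N-methylated analog of UNC1999 with low activity, also at 2.5 µM. Both groups carried 5 nM of the histone deacetylase inhibitor TSA and 10 nM DZNep, which blocks S-adenosylhomocysteine hydrolase, and treatment ran for 48 h from 24 h after passage, so every comparison is between cells under DZNep and TSA. There were 3 poly(A)-selected RNA-seq libraries per compound, and the labels do not state whether each was its own culture. The spread that the p-values rest on is that between these libraries, and it may be technical.

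Class I molecules display peptides from inside the cell to CD8+ T cells and to receptors of natural killer cells. A polymorphic or conserved heavy chain pairs with beta-2 microglobulin in the endoplasmic reticulum, the TAP1-TAP2 transporter brings in peptides cut by the proteasome, and tapasin holds the empty heavy chain at the transporter until it is loaded. NLRC5 is the transactivator that is recruited to class I promoters, and interferons raise most of these genes in many cell types. Human embryonic stem cells are known for low surface class I.

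Total counts per library were 29699441 to 42345448, and the members together took 10128 to 14730 counts of a library. The first principal component of log2 CPM (CPM are counts scaled to library size) held 67.8% of the variance and separated the compounds. On that component UNC1999 replicates 1 to 3 lay at -20.1, -39.3 and -41.4, and the UNC2400 libraries at 31.6 to 35.2. Stem cell markers were high, POU5F1 for example at 1020 CPM in UNC1999 and 1390 CPM in UNC2400, but 4 of the 8 fell and none rose (summed levels of 6410 to 7130 CPM in UNC1999 and 7670 to 7770 CPM in UNC2400; median log2 fold change -0.14). With offsets for gene length and GC content all 8 fell (median -0.34). The 10 leukocyte markers, of which 3 were expressed enough to be tested and none passed, summed to 5.69 to 6.68 CPM in UNC1999 and 6.04 to 7.26 CPM in UNC2400. None of the 10 was at 0 in all libraries, and PTPRC (CD45), their defining marker, averaged 0.00982 CPM in UNC1999 and 0.0733 CPM in UNC2400. Of the 8 fibroblast markers, 5 were tested, of which 1 rose and 4 fell (summed levels of 206 to 218 CPM in UNC1999 and 305 to 335 CPM in UNC2400). The 3 not tested, DCN, LUM and FAP, averaged at most 0.0382 CPM in UNC1999 and 0.016 CPM in UNC2400. PDGFRB, which rose, averaged 0.508 CPM in UNC1999 and 0.189 CPM in UNC2400, and its groups overlapped. Of the 4 endothelial markers in the table, 3 were tested and all 3 fell (71.1 to 81.9 CPM in UNC1999 and 97.3 to 110 CPM in UNC2400). Most of that sum was KDR, with a mean of 72.9 CPM in UNC1999 and 97.3 CPM in UNC2400. CDH5, which was not tested, averaged 0.0193 CPM in UNC1999 and 0.0466 CPM in UNC2400. Whether these marker levels have a part in the values of the members was not tested. In bulk RNA, fewer cells with a transcript and less transcript per cell cannot be told apart.

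With UNC1999, 4 of the 9 members rose, 5 did not pass the test and none fell. HLA-E rose most, then TAP1, B2M and TAP2, while HLA-B, HLA-C, HLA-F, TAPBP and NLRC5 stayed on the other side of the threshold. The test was edgeR's quasi-likelihood test over 17596 genes with Benjamini-Hochberg adjustment and a threshold of 0.05. By it, 26.8% of all genes tested were higher, 25.9% lower and 52.7% changed in either direction. The members called made up 44.4% of the list, all of them higher, and with 9 genes this share is not read as a result about the list. Their median log2 fold change was 0.23, against 0.0182 over all genes tested. That median was 0.11 without UNC1999 replicate 2 or without UNC2400 replicate 2, 0.12 without UNC1999 replicate 3, and 0.08 with per-library offsets for gene length and GC content. The groups did not overlap for 5 of the 9 members, or 55.6%, each with UNC1999 above, against 60.6% of all genes in either direction and 30.9% with UNC1999 above. With these length and GC offsets, again 4 members were higher and none lower, against 24.1% and 25.2% of all genes, but they were HLA-E, TAP1, HLA-B and NLRC5. With the replicate number as a block, 4 members were higher and none lower (27.7% and 26.7% of all genes), and with block and offsets together 4 were higher and 1 lower (24.7% and 26% of all genes). The statements that follow are therefore about single genes.

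**Figure D1:**
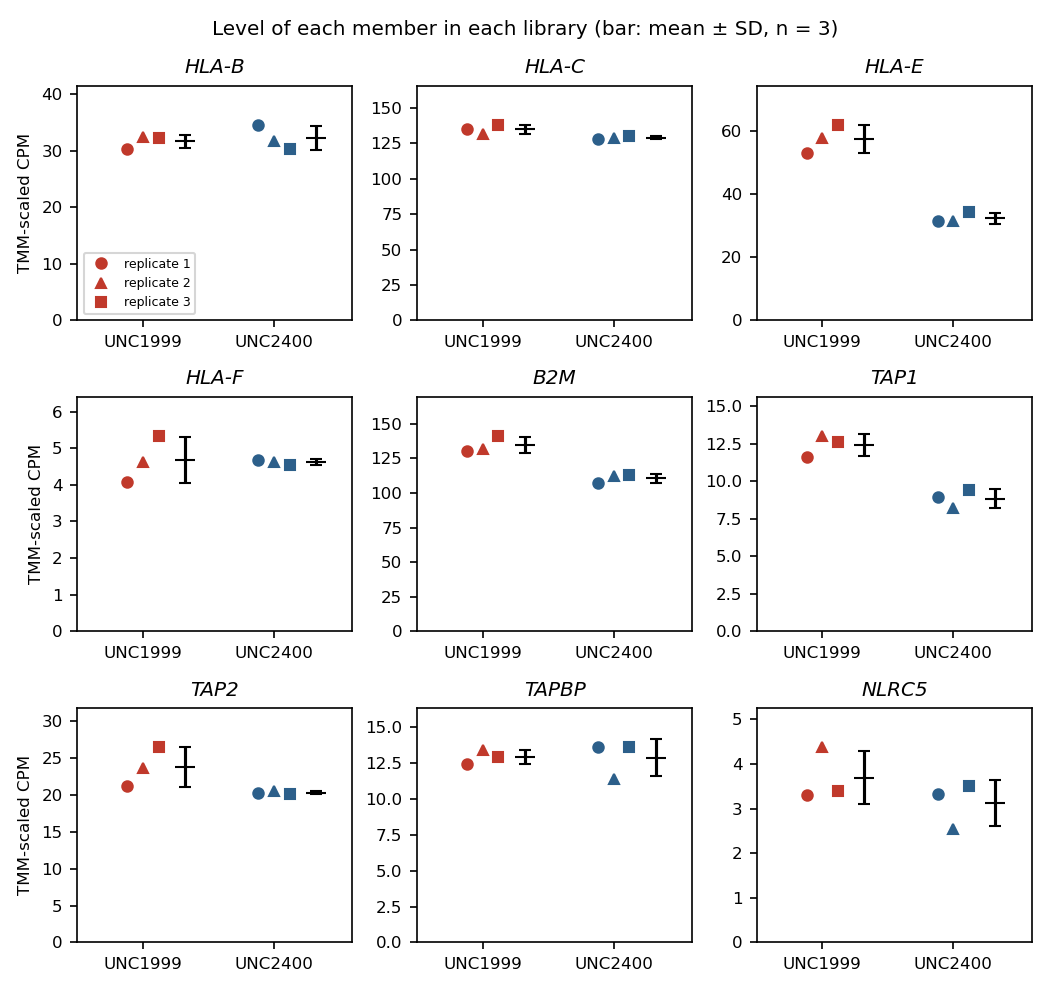
Level of each of the 9 members in each library, in TMM-scaled CPM on axes that start at 0, with UNC1999 libraries in red and UNC2400 libraries in blue, marker shape giving the replicate number and the bar the mean ± SD (n = 3). HLA-E, at 53.0 to 62.0 CPM in UNC1999 and 31.4 to 34.5 CPM in UNC2400, shows the widest gap between the groups, and HLA-B, HLA-F, TAPBP and NLRC5 overlap.

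The promoters of these genes are known to hold sites for NF-Y, CREB and ATF factors, NF-kB and interferon regulatory factors. RefSeq promoter windows, from 250 bases before to 50 bases after a start site in build GRCh38.p14, were matched by symbol for 7 of the 9 members, in 8 windows since TAP1 has 2 starts. HLA-E and NLRC5 had no entry. The 4 windows shown set TAP1 and B2M, which rose, beside HLA-C and TAPBP, which did not pass the test. Capitals mark matches, on either strand, to 4 motifs. The box bound by NF-Y was searched as CCAAT, the interferon-type element as GAAANNGAAA, the NF-kB-type element as GGGANNNNCC and the CRE half-site, the core of CREB and ATF sites, as TGACG. Neighbouring matches can overlap and then form 1 run of capitals.
TAP1, chr6:32853655-32853954, minus strand: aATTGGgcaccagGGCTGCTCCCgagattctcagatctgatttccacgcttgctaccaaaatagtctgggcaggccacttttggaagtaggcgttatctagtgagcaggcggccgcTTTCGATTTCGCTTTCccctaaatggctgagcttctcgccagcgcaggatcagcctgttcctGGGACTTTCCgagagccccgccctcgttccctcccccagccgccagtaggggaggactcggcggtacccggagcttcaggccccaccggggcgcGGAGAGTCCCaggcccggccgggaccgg
B2M, chr15:44711267-44711566, plus strand: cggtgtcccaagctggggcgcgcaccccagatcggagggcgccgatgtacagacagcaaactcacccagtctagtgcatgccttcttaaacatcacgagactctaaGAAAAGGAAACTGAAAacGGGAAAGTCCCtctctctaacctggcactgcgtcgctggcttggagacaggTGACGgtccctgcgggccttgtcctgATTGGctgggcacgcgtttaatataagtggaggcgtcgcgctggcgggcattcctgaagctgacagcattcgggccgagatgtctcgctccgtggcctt
HLA-C, chr6:31272043-31272342, minus strand: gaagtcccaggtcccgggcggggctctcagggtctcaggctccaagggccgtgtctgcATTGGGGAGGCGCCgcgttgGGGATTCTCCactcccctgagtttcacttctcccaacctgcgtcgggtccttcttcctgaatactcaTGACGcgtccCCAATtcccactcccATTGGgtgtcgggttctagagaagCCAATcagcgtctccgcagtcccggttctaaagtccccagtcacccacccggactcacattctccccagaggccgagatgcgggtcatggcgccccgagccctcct
TAPBP, chr6:33314029-33314328, minus strand: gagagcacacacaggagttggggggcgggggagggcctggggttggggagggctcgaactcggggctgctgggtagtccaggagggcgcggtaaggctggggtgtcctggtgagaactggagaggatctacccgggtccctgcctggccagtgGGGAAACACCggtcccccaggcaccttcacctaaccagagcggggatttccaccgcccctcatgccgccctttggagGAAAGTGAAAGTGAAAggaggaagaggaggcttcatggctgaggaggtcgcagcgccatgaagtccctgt
The interferon-type element was in the windows of 5 of the 7 members, TAP1, B2M, TAP2, TAPBP and HLA-F, and in 3.57% of all 35116 windows of that length. The CCAAT box was in 5 of 7 members and 34.6% of all windows, the NF-kB-type element in 5 of 7 and 25.6%, and the CRE half-site in 4 of 7 and 24.6%. Members with the interferon-type element included 3 that rose and 2 that did not pass. The second TAP1 window held no match. The windows of HLA-B and HLA-C were 88.5% identical, those of HLA-B and HLA-F 79.7%, and those of HLA-C and HLA-F 78.9%. A match describes the letters of the window and says nothing of whether a factor bound there. Only exact letters were searched, so a window without a match can still hold a variant of the element. The windows of HLA-B and HLA-C hold TTTCACTTCT, which is near the interferon-type element but not a match.

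**Figure D2:**
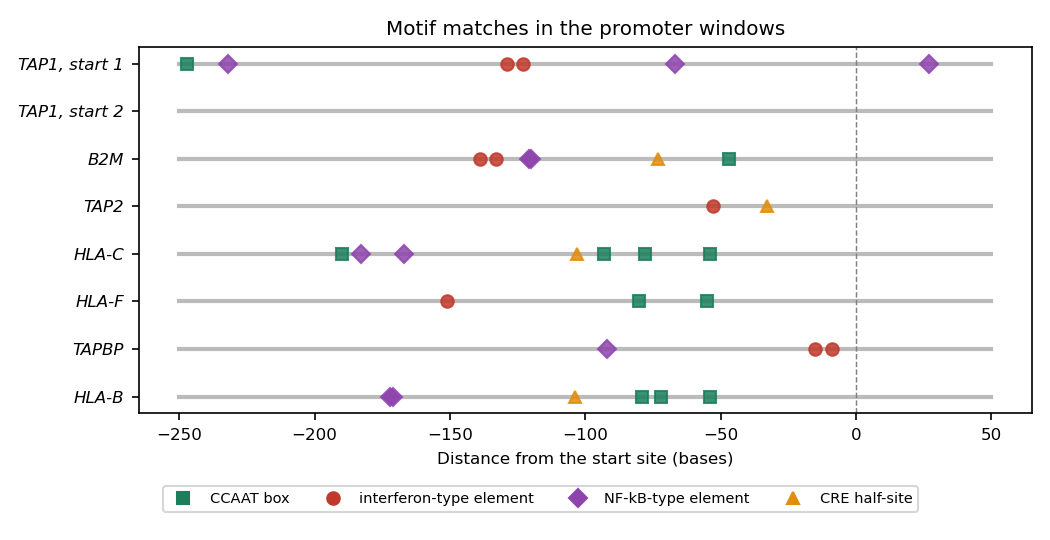
Position of each motif match in the 8 promoter windows, as the distance in bases of its centre from the start site, with 1 row per window and 1 marker shape and colour per motif. Exact matches to the interferon-type element lie at -129 and -123 in TAP1, -139 and -133 in B2M and -53 in TAP2. They lie at -151 in HLA-F and at -15 and -9 in TAPBP. The rows of HLA-B and HLA-C hold the other 3 motifs and no exact match to this element. The second TAP1 row is empty.

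Among the heavy chains, HLA-E, a conserved class I molecule that presents leader peptides of other class I chains to the NKG2A receptor of natural killer cells, was the member with the largest change. It had 53.0, 58.0 and 62.0 CPM in UNC1999 replicates 1 to 3, against 31.4, 31.5 and 34.5 CPM in UNC2400 replicates 1 to 3. Every UNC1999 library lay above every UNC2400 library, and UNC1999 replicate 1 was the lowest of its group. The log2 fold change was 0.83 ± 0.06 (SE; 95% interval 0.69 to 0.97), 1.78-fold, with an adjusted p of 3.35e-08 by edgeR's quasi-likelihood test. In size it stood at the 89.7th percentile of absolute log2 fold changes over all genes tested. It passed under all 15 alternatives, with log2 fold changes of 0.58 to 0.87, and was 0.87 without UNC1999 replicate 1. The lowest value came with the length and GC offsets. The authors' deposited table gives 0.81 for HLA-E.

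HLA-B and HLA-C are classical, highly polymorphic heavy chains. HLA-C had 135, 132 and 138 CPM in UNC1999, against 128, 129 and 130 CPM in UNC2400. The groups did not overlap, but the difference was small, with a log2 fold change of 0.07 (95% interval -0.03 to 0.17; adjusted p = 0.248, edgeR). HLA-B had 30.2, 32.4 and 32.2 CPM in UNC1999, against 34.5, 31.7 and 30.3 CPM in UNC2400. The HLA-B groups overlapped, and the log2 fold change was -0.02 (95% interval -0.16 to 0.11; adjusted p = 0.767, edgeR). The intervals reach 1.12-fold upward for HLA-C and, for HLA-B, from 0.896-fold to 1.08-fold. With the length and GC offsets, HLA-B was at 0.17 (adjusted p = 0.0469, edgeR) and HLA-C at -0.11 (adjusted p = 0.0597, edgeR), so the directions of both turn with that setting.

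HLA-F, a conserved heavy chain that can appear at the surface without peptide, was low. It had 4.09, 4.63 and 5.33 CPM in UNC1999, against 4.69, 4.62 and 4.54 CPM in UNC2400. The UNC1999 libraries lay on both sides of the UNC2400 libraries, which were close together. Its log2 fold change was 0.02 with a wide 95% interval of -0.25 to 0.30 (adjusted p = 0.904, edgeR), and its sign turned with the offsets (-0.06). HLA-F overlaps HLA-F-AS1 in RefSeq, and the strand setting of the counting is not given in the sources used here, so their reads may be mixed.

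Within the summed counts of the member heavy chains, the shares differed between the compounds. Other class I heavy chain genes are not in that sum. HLA-E took 23.9%, 25.6% and 26.1% of the counts of HLA-B, HLA-C, HLA-E and HLA-F in UNC1999, against 15.8%, 16.0% and 17.3% in UNC2400. The shares of HLA-C were 59.0% ± 1.47 in UNC1999 and 65.0% ± 0.559 in UNC2400, and those of HLA-B 13.8% ± 0.413 in UNC1999 and 16.2% ± 1.11 in UNC2400 (SD, n = 3 each). The difference between genes was tested on ratios of counts within a library, which no scaling factor touches. These ratios carry no offsets for length and GC content. In the fit with those offsets, HLA-E was at 0.58, HLA-B at 0.17 and HLA-C at -0.11 (log2 fold change). HLA-E over HLA-C was 0.427 ± 0.0294 in UNC1999 and 0.252 ± 0.0114 in UNC2400 (SD, n = 3 each). HLA-E over HLA-B was 1.82 ± 0.0885 in UNC1999 and 1.01 ± 0.115 in UNC2400 (SD, n = 3 each). Neither ratio overlapped between the groups, and both gave an exact two-sided permutation p of 0.1, the smallest that 3 against 3 libraries allow (adjusted p = 0.1 over 4 ratios).

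B2M, the light chain shared by all class I molecules, rose modestly. It had 130, 132 and 141 CPM in UNC1999, against 107, 112 and 113 CPM in UNC2400. All UNC1999 libraries were above all UNC2400 libraries. The log2 fold change was 0.28 ± 0.05 (SE; 95% interval 0.17 to 0.38), 1.21-fold, with an adjusted p of 0.000254 by edgeR's quasi-likelihood test. Leaving out any 1 library kept the call, with values of 0.22 to 0.29. The length and GC offsets ended it, with a log2 fold change of 0 (95% interval -0.10 to 0.09, adjusted p = 0.96, edgeR). They were fitted without regard to compound, so they also take out any difference between compounds that follows length or GC content. The principal transcript of B2M had a GC content of 39.4%, against 54.8% to 60.2% for the other members. The offsets instead used the longest transcript of each gene. The part of GC content in the value was not tested beyond these offsets. Relative to the summed counts of HLA-B, HLA-C, HLA-E and HLA-F, B2M stood at 0.585 ± 0.00689 in UNC1999 and 0.559 ± 0.0153 in UNC2400 (SD, n = 3 each; exact permutation p = 0.1, adjusted p = 0.1).

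TAP1 and TAP2 form the transporter that carries peptides into the endoplasmic reticulum. TAP1 had 11.6, 13 and 12.6 CPM in UNC1999, against 8.92, 8.19 and 9.41 CPM in UNC2400. The lowest UNC1999 library stood above the highest UNC2400 library. TAP1 rose by 0.50 ± 0.09 on the log2 scale (SE; 95% interval 0.30 to 0.69), 1.41-fold, with an adjusted p of 0.000266 by edgeR's quasi-likelihood test. It passed under all 15 alternatives, with 0.33 under the length and GC offsets as the lowest value. TAP1 overlaps the antisense RNA gene PSMB8-AS1 in RefSeq.

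TAP2 had 21.2, 23.7 and 26.5 CPM in UNC1999, against 20.3, 20.6 and 20.1 CPM in UNC2400. UNC1999 replicate 1 lay just above the UNC2400 libraries and replicate 3 well above. The log2 fold change was 0.23 ± 0.08 (SE; 95% interval 0.06 to 0.39), 1.17-fold, with an adjusted p of 0.0224 by edgeR's quasi-likelihood test. The call held without UNC1999 replicate 1 (0.28, adjusted p = 0.000757) and was lost when any other single library was left out, with adjusted p between 0.0556 and 0.207 and the lowest value, 0.12, without UNC1999 replicate 3. The length and GC offsets ended it as well (0.08, adjusted p = 0.397). Of the 50-base stretches of its principal transcript in GENCODE 29, 80.2% also occur in another annotated gene, AL669918.1, so TAP2 counts are uncertain. TAP1 over TAP2 was 0.525 ± 0.0409 in UNC1999 and 0.435 ± 0.0354 in UNC2400 (SD, n = 3 each), without overlap (exact permutation p = 0.1, the smallest possible, adjusted p = 0.1).

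TAPBP encodes tapasin, the chaperone that bridges heavy chain and transporter. It had 12.4, 13.4 and 12.9 CPM in UNC1999, against 13.6, 11.4 and 13.6 CPM in UNC2400. The 3 UNC1999 libraries lay within the range of the UNC2400 libraries. The log2 fold change was 0.01 (95% interval -0.18 to 0.20; adjusted p = 0.924, edgeR). Its sign turned in several alternatives, from -0.08 to 0.05. In RefSeq it overlaps RGL2, which fell by 0.26.

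NLRC5 was the lowest member, with 96 to 154 counts per library. It had 3.31, 4.38 and 3.39 CPM in UNC1999, against 3.33, 2.54 and 3.51 CPM in UNC2400. The groups overlapped, with UNC1999 replicate 2 the highest and UNC2400 replicate 2 the lowest library. The log2 fold change was 0.25 (95% interval -0.10 to 0.61; adjusted p = 0.211, edgeR). With the length and GC offsets it was 0.49 and passed (adjusted p = 0.0207, edgeR). A change of up to 1.52-fold lies inside the interval.

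**Figure D3:**
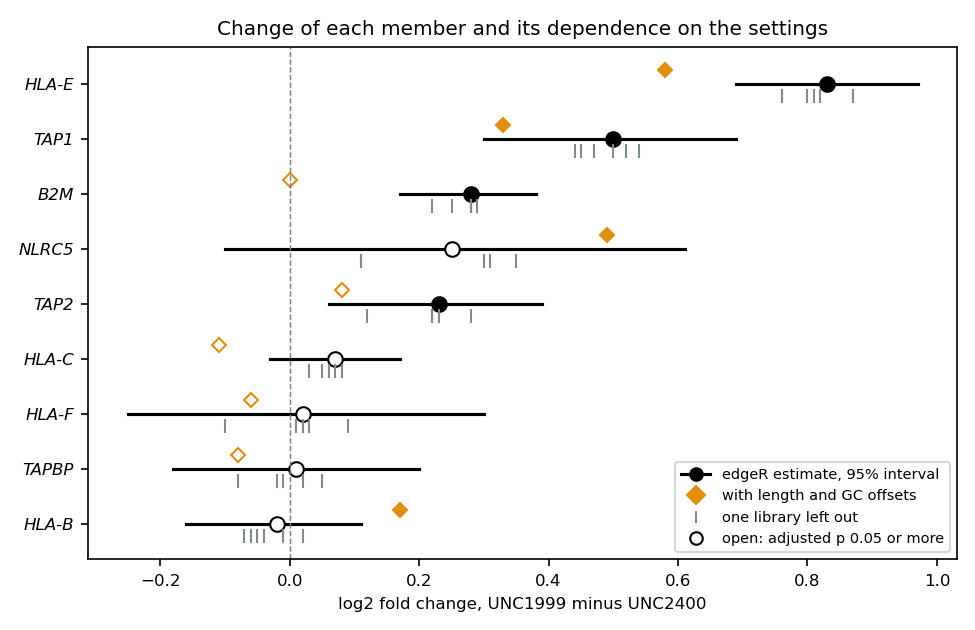
Log2 fold change of each member, UNC1999 minus UNC2400, on the horizontal axis, with black circles and lines for the edgeR estimate and its 95% interval, diamonds for the fit with length and GC offsets and grey ticks for fits without 1 library. Filled symbols have an adjusted p under 0.05. HLA-E at 0.83 and TAP1 at 0.50 stay filled under the offsets, B2M moves to 0, NLRC5 to 0.49 and HLA-B to 0.17.

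The authors' deposited table called the same 4 members, with HLA-E at 0.81, TAP1 at 0.48, B2M at 0.26 and TAP2 at 0.21 (log2, adjusted p from 2.09e-10 to 0.0272), and none of the other 5. That table called 21.3% of its genes higher and 22.7% lower. In the authors' deposited log2 values, which are marked as batch-corrected, the groups did not overlap for 5 members, HLA-C, HLA-E, B2M, TAP1 and TAP2.

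Levels were compared between members only per length, as CPM per kb of the principal transcript in GENCODE 29. HLA-C was highest in both groups, with 87.9 ± 1.95 in UNC1999 and 84.0 ± 0.651 in UNC2400 (CPM per kb, SD, n = 3 each). B2M followed with 78.8 ± 3.44 in UNC1999 and 64.9 ± 1.89 in UNC2400. HLA-E and HLA-B changed places: HLA-E was at 22.2 ± 1.73 in UNC1999 and 12.5 ± 0.677 in UNC2400, and HLA-B at 20.4 ± 0.786 in UNC1999 and 20.8 ± 1.38 in UNC2400 (CPM per kb, SD, n = 3 each). In UNC1999 the libraries of HLA-E and HLA-B overlapped, and in UNC2400 those of HLA-B were all above those of HLA-E. TAP2, TAPBP, TAP1, HLA-F and NLRC5 came next in that order in both groups. TAP1 and HLA-F overlapped in UNC2400 and were apart in UNC1999. The lowest, NLRC5, was at 0.541 ± 0.0874 in UNC1999 and 0.458 ± 0.0756 in UNC2400 (CPM per kb, SD, n = 3 each). Stretches of 50 bases shared with other genes made up 1.70% of the HLA-F transcript, 2.54% of HLA-B, 5.13% of HLA-E and 6.79% of HLA-C, mostly with other HLA genes. How reads with several matches, or reads from HLA alleles unlike the reference sequence, were counted is not given in the sources used here, so levels between HLA genes are uncertain.

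**Figure D4:**
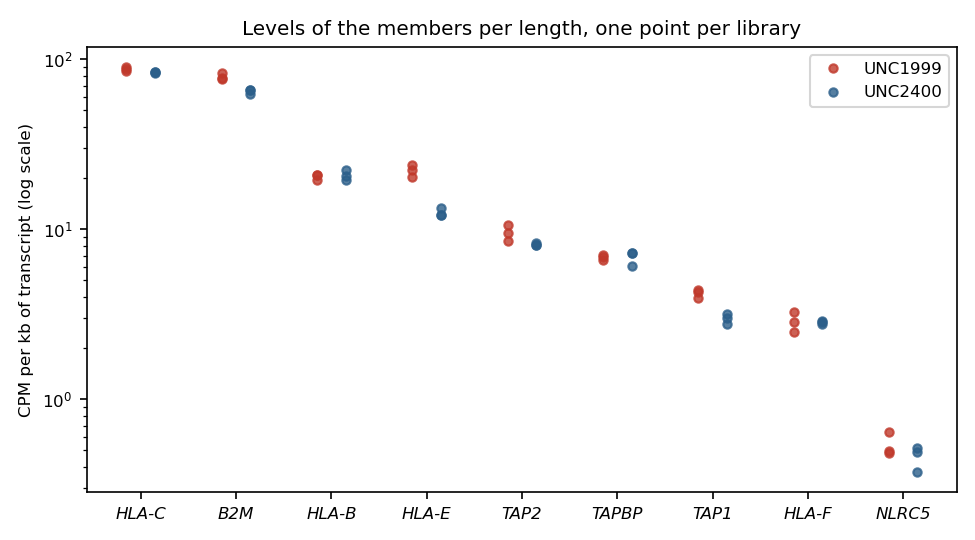
Level of each member in CPM per kb of its principal transcript on a log axis, 1 point per library, with UNC1999 in red left of UNC2400 in blue and genes in the order of their UNC2400 mean. Levels run from about 84.0 for HLA-C to 0.458 for NLRC5 in UNC2400 means, and HLA-E is the gene whose groups are farthest apart.

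By position, 7 members lie on chromosome 6, in or near the MHC, B2M on chromosome 15 and NLRC5 on chromosome 16 (RefSeq, GRCh38.p14, used for names and order only, since the counts are on hg19). The nearest tested gene on each side of a member, 16 genes in all beyond the members, showed no single direction. Of these, 5 were higher and 4 lower, against 26.8% and 25.9% of all genes tested. Next to TAP1 and TAP2, the immunoproteasome gene PSMB8 rose by 0.51 ± 0.15 (log2, SE), and next to TAP1, PSMB9 was at 0.31 (95% interval -0.04 to 0.67; adjusted p = 0.13, edgeR). Beside HLA-E, RANP1 was called higher at 1.09 (adjusted p = 0.0443, edgeR) and GNL1 fell by 0.19. The level of RANP1 and its change under the alternatives are not given here. Beside B2M, SPG11 fell by 0.63 and TRIM69 rose by 0.53.

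The other genes of the class I pathway did not move as one. Peptide-loading chaperones and trimming enzymes were mostly lower in UNC1999: of 9 tested, 8 fell and none rose, where 25.9% of all genes fell and 26.8% rose. Their median log2 fold change was -0.31, against 0.0182 over all genes. The chaperone calreticulin (CALR) had 734 ± 44.5 CPM in UNC1999 and 1080 ± 41.5 CPM in UNC2400 (SD, n = 3 each) and fell by 0.55 ± 0.06. The thiol oxidoreductase of the loading complex, PDIA3, fell by 0.34 ± 0.06, and the cytosolic peptidases TPP2 and THOP1 by 0.76 ± 0.06 and 0.66 ± 0.07 (log2, SE). The list had 7 lower and none higher with the length and GC offsets. It had 6 lower without UNC1999 replicate 2, UNC1999 replicate 3 or UNC2400 replicate 1. Both chaperones and peptidases serve many other proteins as well.

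Of the 5 immunoproteasome and proteasome activator genes, PSMB8 rose and 4 did not pass. PSMB8, an interferon-inducible catalytic subunit, had 9.37 ± 1.06 CPM in UNC1999 and 6.53 ± 1.63 CPM in UNC2400 (SD, n = 3 each; adjusted p = 0.00762, edgeR). Its call was lost with the offsets (0.23, adjusted p = 0.187) and without UNC1999 replicate 2 (0.42, adjusted p = 0.0501), and the value was 0.32 without UNC2400 replicate 1, its lowest library. The activator subunits PSME1 and PSME2 were at -0.09 and -0.10 (adjusted p of 0.21 and 0.178), and both passed as lower with the offsets (-0.37 and -0.41). Of the 3 constitutive catalytic subunits, PSMB5 rose by 0.19 ± 0.05, a call lost with the offsets (0.06) and without UNC1999 replicate 3 (0.14, adjusted p = 0.0905), and PSMB6 and PSMB7 were at 0.07 and 0.05 without passing (log2). With the offsets PSMB6 was at -0.18 and passed (adjusted p = 0.012, edgeR).

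Other class I and class I-like genes included ligands of the activating receptor NKG2D. Of 9 tested, 3 rose and none fell, with a median of 0.11. With the length and GC offsets 2 were higher and 1 lower, with a median of -0.01. ULBP1 had 1.19, 2.10 and 2.03 CPM in UNC1999, against 0.486, 0.287 and 0.431 CPM in UNC2400, and rose by 2.17 ± 0.31 (log2, SE; adjusted p = 1.76e-05, edgeR). It passed the low-count filter only through UNC1999, so it could be called only as higher. MICB rose by 0.39 ± 0.07, with 38.9 ± 4.14 CPM in UNC1999 and 29.6 ± 0.684 CPM in UNC2400 (SD, n = 3 each). ULBP3 rose by 0.80 ± 0.24, a call lost without UNC1999 replicate 2 (0.55, adjusted p = 0.0758), without UNC2400 replicate 2 (0.69, adjusted p = 0.0588) and with the offsets (0.59, adjusted p = 0.0501).

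Factors of class I promoters differed little. Of 10 tested, USF1 rose by 0.21 ± 0.05, RFXANK, a subunit of the RFX complex, fell by 0.18 ± 0.07 (log2, SE), and 8 did not pass, with a median of 0.02. The RFXANK call was lost without UNC1999 replicate 2, UNC2400 replicate 1 or UNC2400 replicate 3 (adjusted p of 0.0536, 0.0578 and 0.128), and USF1 was at -0.02 with the offsets. NFYA and RFXAP were at -0.12 and 0.18 without passing (adjusted p of 0.0529 and 0.0845), and NFYA passed as lower with the offsets (-0.23). With the offsets 1 of the 10 was higher and 5 lower.

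Of 14 genes of interferon and NF-kB signalling, 5 rose and 3 fell, with a median of 0.09. The number of falls varied with the setting. It stayed at 3 with RLE scaling, with the replicate block and without UNC1999 replicate 1. None passed without UNC1999 replicate 3, and 1 passed without any single UNC2400 library, with upper-quartile scaling or with no low-count filter. Rises numbered 4 or 5, or 7 with block and offsets together. The interferon-gamma receptor gene IFNGR1 had 50.3 ± 2.34 CPM in UNC1999 and 37.7 ± 2.07 CPM in UNC2400 (SD, n = 3 each) and rose by 0.42 ± 0.06. IFNGR2 rose by 0.24 ± 0.07, the kinase gene JAK1 by 0.26 ± 0.06 and the NF-kB subunit gene RELA by 0.31 ± 0.07 (log2, SE); RELA was at 0.15 with the offsets (adjusted p = 0.0515, edgeR). Of 18 interferon-stimulated genes tested, 8 rose and 2 fell, with a median of 0.22, or 0.02 with the offsets. IFIT2 and OASL, both among the 8, passed the low-count filter only through UNC1999, where they were high, so they could be called only in that direction and the count is a description. IFIT1 had 4.12, 6.45 and 7.55 CPM in UNC1999, against 1.77, 2.04 and 1.62 CPM in UNC2400, and IFIT2 had 1.36, 2.98 and 4.13 CPM in UNC1999, against 0.104, 0.216 and 0.265 CPM in UNC2400. In both genes UNC1999 replicate 1 was the lowest library of its group, as it was for every member except HLA-C, whether the member passed or not. ISG15 rose by 0.95 ± 0.14, while IDO1, an interferon-inducible enzyme of tryptophan breakdown, fell by 1.76 ± 0.11 (log2, SE).

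MHC class II genes were counted in these cells too, at 153 to 163 CPM summed over the list in UNC1999 and 142 to 144 CPM in UNC2400. Of 11 tested, 4 rose and 1 fell, with a median of 0.09, and the fall was lost without UNC1999 replicate 2 or any single UNC2400 library. HLA-DMB, part of the peptide exchange factor of class II, had 3.19, 3.72 and 3.89 CPM in UNC1999, against 1.25, 1.10 and 1.09 CPM in UNC2400, and rose by 1.65 ± 0.18 (log2, SE; adjusted p = 9.57e-07, edgeR). HLA-DMA, its partner chain, and HLA-DQB1 each rose by 0.41, and HLA-DRB1 by 0.23. With the offsets 1 gene was higher and 5 lower: HLA-DQB1 was then at 0.15, HLA-DMA at 0.29 and HLA-DRB1 at 0.08, none of them past the threshold. HLA-DRB1 also lost its call without UNC2400 replicate 1 or 2 (adjusted p of 0.0591 and 0.0617).

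**Figure D5:**
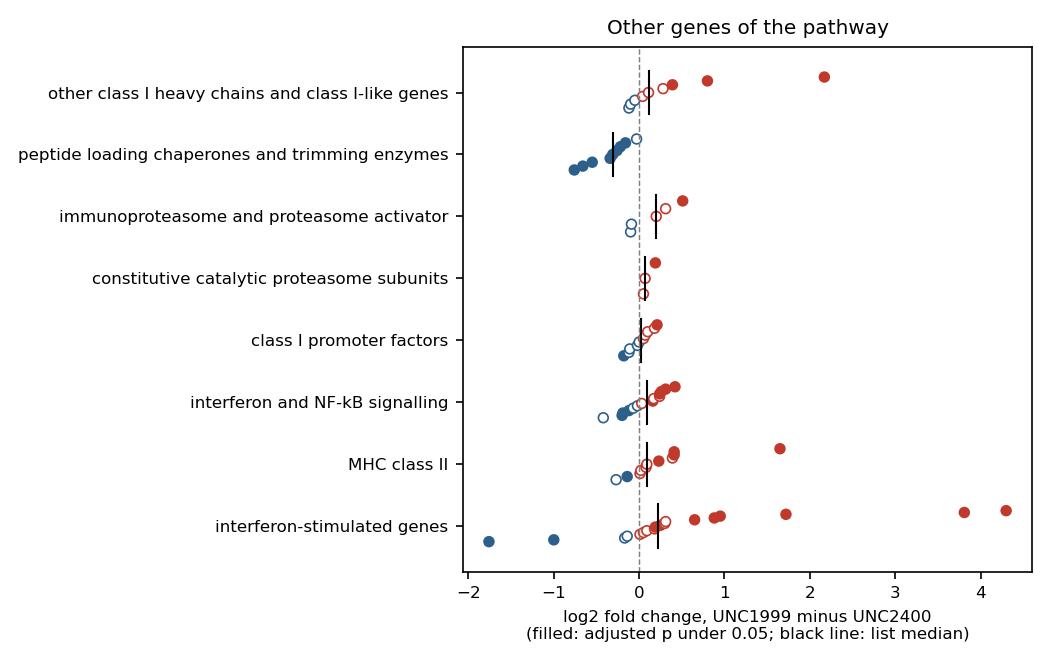
Log2 fold change, UNC1999 minus UNC2400, of each tested gene in the other lists of the pathway, 1 row per list, filled where the adjusted p is under 0.05, with red for values above 0, blue for values below 0 and a black line at the list median. The chaperones and trimming enzymes lie below 0 (median -0.31), and the interferon-stimulated genes spread widely, with IDO1 at -1.76, and the points farthest to the right are IFIT2 and OASL, which passed the low-count filter only through UNC1999, so their distance from 0 is not read.

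The genes most like B2M over the 6 libraries, by Pearson r of log2 CPM among the 13178 genes whose log2 CPM averaged 1 or more, were MAP3K13 (0.9992), C1orf233 (0.9986) and PPIF (0.9985). Those most like NLRC5 were CHML (0.9791), AF003625.3 (0.9787) and HLA-L (0.9776). The 6 points share the difference between the compounds, so these values are descriptions only.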

How the data were processed

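Counts per gene name were deposited by the authors without normalization, as whole numbers in a table marked as having duplicates removed. Tools named, per the submitters' processing notes and without role or order, are TopHat2 2.0.13, Trim Galore 0.4.0, Subread 1.5.0 and featureCounts, and the build is hg19. The annotation, the strand setting and how multiply matching reads were treated: not given in the sources used here. Log2 values deposited by the authors are normalized and marked as batch-corrected. The authors' deposited comparison table holds p-values, scores of its test and log2 fold changes, with limma's column names, per the file headers.

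Total counts per library were 29699441 to 42345448. Counts were tested by quasi-likelihood with edgeR 4.0.16 (R 4.3.3, TMM factors, group only, two-sided), after a check on simulated data. The default low-count filter by group kept 17596 genes. Few genes were changed in the simulated data, at random up or down, so that check does not cover data in which 52.7% of genes are called. CPM are TMM-scaled, fold changes are UNC1999 over UNC2400, and intervals are 95% intervals. The fits differed in scaling, tool (DESeq2 1.42.0, limma-voom with limma 3.58.1), filter, block, gene properties and libraries. Gene properties were natural splines of genomic span and, for the longest transcript of each gene in GENCODE 29, of length and GC content. They were found for 84.3% of genes tested. The offsets were fitted to each library without regard to compound, so a difference between compounds that follows these properties is taken out as well. Ratios were tested with scipy 1.17.1 and windows aligned with Biopython 1.88. The members and lists were chosen with earlier results of these data known. Named were all members, up to 4 genes per list with the smallest p, and the 3 genes most like B2M and NLRC5; neighbouring genes were chosen by position. One gene that this rule names is not reported here.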

Additional observations from a re-analysis of the deposited data

How the results depend on the processing

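Over 15 alternatives, HLA-E and TAP1 kept direction and call. Counts of members higher were 3 to 4 when 1 library was left out (20.2% to 27.4% of all genes were then higher), but the length and GC offsets called HLA-E, TAP1, HLA-B and NLRC5 in place of the 4 named above; of members lower the count was 0, or 1 (HLA-C, -0.11, adjusted p = 0.048) with the replicate block and offsets together. Same-numbered libraries deviated together by r of 0.0237, 0.0839 and 0.124, against -0.136 to 0.0618 for libraries of different number. Each UNC1999 library correlated best with its own number, and UNC2400 replicate 1 with another number. UNC1999 replicate 2 and UNC2400 replicate 2 had 29527 and 29385 genes detected, against 26413 to 26918 in the other libraries. Whether the numbers mark pairs is not settled by these values, and the main fit used the group only. The replicate block called 4867 genes higher and 4695 lower (4714 and 4554 without it). It left every member's call as it was, with HLA-E at 0.83. With the offsets, without and with the block, HLA-B was at 0.17 both times, HLA-C at -0.11, HLA-F at -0.06, B2M at 0, TAPBP at -0.08, PSMB6 at -0.18 and -0.19, USF1 at -0.02, RFXAP at -0.08 and AIF1 at -0.22; TAPBP was at 0 with DESeq2 and with no low-count filter. Leaving out 1 library gave -0.07 to 0.02 for HLA-B, -0.10 to 0.09 for HLA-F and -0.08 to 0.05 for TAPBP. Over the other lists of the pathway, 23 genes were higher and 15 lower; with the offsets 15 were higher and 25 lower, with the block added 27 were lower, and leaving out 1 library gave 19 to 23 higher and 8 to 18 lower, the lowest without UNC2400 replicate 1. The cause of these moves was not tested. All genes higher ranged from 3642 to 4925 and lower from 3951 to 5151 with 1 library left out. NLRC5 and HLA-F had the fewest counts and the widest intervals of the members. The part of depth in those intervals was not tested.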
